A study of Mus musculus with 4 samples.

Results

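Lysosomal genes of mouse platelets were examined: the subunits of the vacuolar proton pump (V-ATPase, gene names starting Atp6v or Atp6ap), the cathepsins (Cts and 1 letter), the lysosome-associated membrane proteins (Lamp1 to Lamp5) and the vacuolar protein sorting genes (Vps and a digit). A gene was taken when its name fitted 1 of these patterns, it was listed as protein coding and it was present in both of the deposited tables, with Vps33b left out. The rule used names only and gave 66 genes of the 14652 in both tables. They were 9 genes of the V-ATPase V1 sector, 8 of its V0 sector, 2 V-ATPase accessory genes, 12 cathepsins, 4 LAMPs, 7 genes of the HOPS and CORVET tethering complexes, 8 ESCRT genes, 4 retromer genes, 5 GARP and EARP genes, 4 Vps13 genes and 3 other Vps genes. A further 3 genes met the rule in 1 table only and were close to 0 there: Vps37d and Atp6v1g3 had 5 reads each in the library labelled cKO and 0 in WT, and Atp6v1fnb had 0 in Old and 3 in Young.

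The study sequenced platelet RNA in 4 libraries, 1 per group, each a pool of platelets from 7 male mice. A library labelled HuR cKO (platelet-specific conditional knockout of HuR, the RNA-binding protein encoded by Elavl1, at 3 months of age) was set against WT littermates of 3 months, and a library of Old mice (24 months, wild type) against Young mice (3 months, wild type). Which promoter drives the Cre recombinase of the conditional knockout is not stated in the labels. Recovered read totals were 17702341 for the library labelled cKO, 17978384 for WT, 18472149 for Old and 18145612 for Young. With 1 library per group no difference has a replicate check and no test over samples is possible: each ratio is of reads after scaling by trimmed-mean (TMM) library sizes, and the range in brackets is an exact 95% interval that covers counting error only, and not the variation from pool to pool. The verbs rose and fell are kept for genes that had 100 reads or more in at least 1 of the 2 libraries and whose whole interval lay beyond a 2-fold difference; ratios that missed this are given as values.

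Elavl1 showed no loss of reads: the library labelled cKO had 1481 against 876 in WT, a ratio of 1.66 (1.53 to 1.81). It had 527 reads in Old and 621 in Young, a ratio of 0.93 (0.83 to 1.05). The gene-level reads therefore do not show the loss that the label names. Reads per exon and protein were not examined, so whether the knockout took place cannot be told from these counts. Every direction below is one of the library labelled cKO. The 12 platelet markers examined (Itga2b, Pf4 and others) held 5.19% of reads in the library labelled cKO, 5.66% in WT, 6.36% in Old and 5.25% in Young, and none was at 0. Markers of other blood cells were present and differed between libraries. The 13 erythroid markers summed to 286840 reads in the library labelled cKO against 149920 in WT, and to 212350 in Old against 392920 in Young. Neutrophil markers, of which 9 could be measured in the first pair and 13 in the second, summed to 731 reads in the library labelled cKO against 1235 in WT, and to 15455 in Old against 580 in Young. In a bulk sample, fewer cells of a type and less RNA per cell cannot be told apart.

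Lysosomes are acidic organelles that degrade proteins, lipids and nucleic acids, and platelets carry lysosomal granules whose hydrolases are released on strong activation. The V-ATPase pumps protons into the lumen: its cytosolic V1 sector hydrolyses ATP and its membrane V0 sector carries the protons. Cathepsins are the proteases that work in this acid, LAMPs coat the inner face of the membrane, and the Vps proteins, first found in yeast, bring cargo to the organelle or retrieve receptors from it. In the megakaryocyte, the parent cell of platelets, the same HOPS-type machinery serves the formation of granules.

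Many lysosomal genes carry an E-box of the CLEAR type, the sequence read by the transcription factor TFEB and its relatives. The palindrome TCACGTGA and the E-box CACGTG at its core (each reads the same on both strands, and every TCACGTGA holds a CACGTG) were searched in RefSeq promoters of GRCm38.p6, from 250 bases before to 50 after a gene's start, which 45 of the 66 genes matched. TCACGTGA was found in 8 of these 45 genes (17.8%) against 1.12% of 27025 genes with a promoter, and CACGTG in 13 (28.9%) against 8.09%. The 27025 genes were not limited, as the 66 were, to protein-coding genes with reads in these platelets, so the sets are unlike. The windows below, with the motif in capitals, are shown for some of the carriers, because they belong to genes whose Old over Young ratios lay on either side of 1, and to Ctsd and Lamp1, the most abundant of the 66 genes. A match is a description of the letters, and factor binding was not measured.
Vps16, chr2:130424290-130424319, plus strand: aggcggcctcgTCACGTGAccccgaagggc
Vps33a, chr5:123573026-123573055, minus strand: agcgactcggaTCACGTGAacgtcccgtca
Vps26a, chr10:62486732-62486761, minus strand: atggcctacggTCACGTGAcgggcggcggg
Ctsa, chr2:164833749-164833778, plus strand: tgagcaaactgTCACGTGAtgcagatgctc
Atp6v1a, chr16:44139373-44139402, minus strand: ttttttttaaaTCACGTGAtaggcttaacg
Ctsd, chr7:142387908-142387937, minus strand: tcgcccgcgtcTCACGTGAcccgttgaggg
Lamp1, chr8:13159088-13159117, plus strand: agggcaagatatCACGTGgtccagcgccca

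HuR binds AU-rich stretches, mostly in the 3′ untranslated regions (UTRs) of messenger RNAs. The AU-rich heptamer TATTTAT was present on the sense strand in the longest annotated 3′UTR of 21 of the 66 genes (31.8%) and of 30.1% of 12206 genes. A run of 7 T was present in 23 (34.8%) and 44.5%. The share for TATTTAT is close to that of all genes and the share for the T run is below it. UTR lengths, which set the chances of a match, were not matched. The median was 950 bases for the 66 genes and about 1200 for the 12206 genes. The sites below (29 bases each, GENCODE M21 on GRCm38, TATTTAT in capitals) belong to the 2 genes with the most distant ratios among carriers with at least 100 reads, in either direction, in the library labelled cKO over WT.
Ctsb, chr14:63144812-63144840, plus strand: ctacccctttaTATTTATtcatgcagttt
Vps37a, chr8:40546328-40546356, plus strand: acattgttttcTATTTATgacttagggat
The 19 carriers of TATTTAT with at least 20 reads had a median log2 ratio of -0.04 in the library labelled cKO over WT, and the 43 other genes had -0.02. In Old over Young the medians were 0.11 for 19 carriers and 0.07 for 44 other genes.

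The 66 genes together held 0.64% of all reads in the library labelled cKO, 0.65% in WT, 0.70% in Old and 0.64% in Young. A handful of genes made up most of this. Ctsd, Lamp1, Lamp2, Ctsz and Atp6v1f took between 69.0% and 72.0% of the 66 genes' reads in every library. Levels between genes are given as RPKM (reads scaled by gene length and by the library's total reads). Ctsd, the aspartic protease cathepsin D, was the most abundant at 869 RPKM in the library labelled cKO, 622 in WT, 643 in Old and 684 in Young. Lamp1 followed, with 430, 461, 613 and 444 RPKM in the same libraries. Atp6v1f, a small V1 subunit, had 309, 300, 362 and 356 RPKM, and Ctsz, the carboxypeptidase cathepsin Z, had 346, 269, 313 and 302. The order of Atp6v1f and Ctsz was not the same in all libraries. Most of the sorting genes lay below 20 RPKM. Subunits of a single complex differed widely in level: within V1, Atp6v1f stood at 300 RPKM in WT while Atp6v1a, the catalytic subunit, stood at 4.57 and Atp6v1h, a regulatory subunit, at 0.58.

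**Figure D1:**
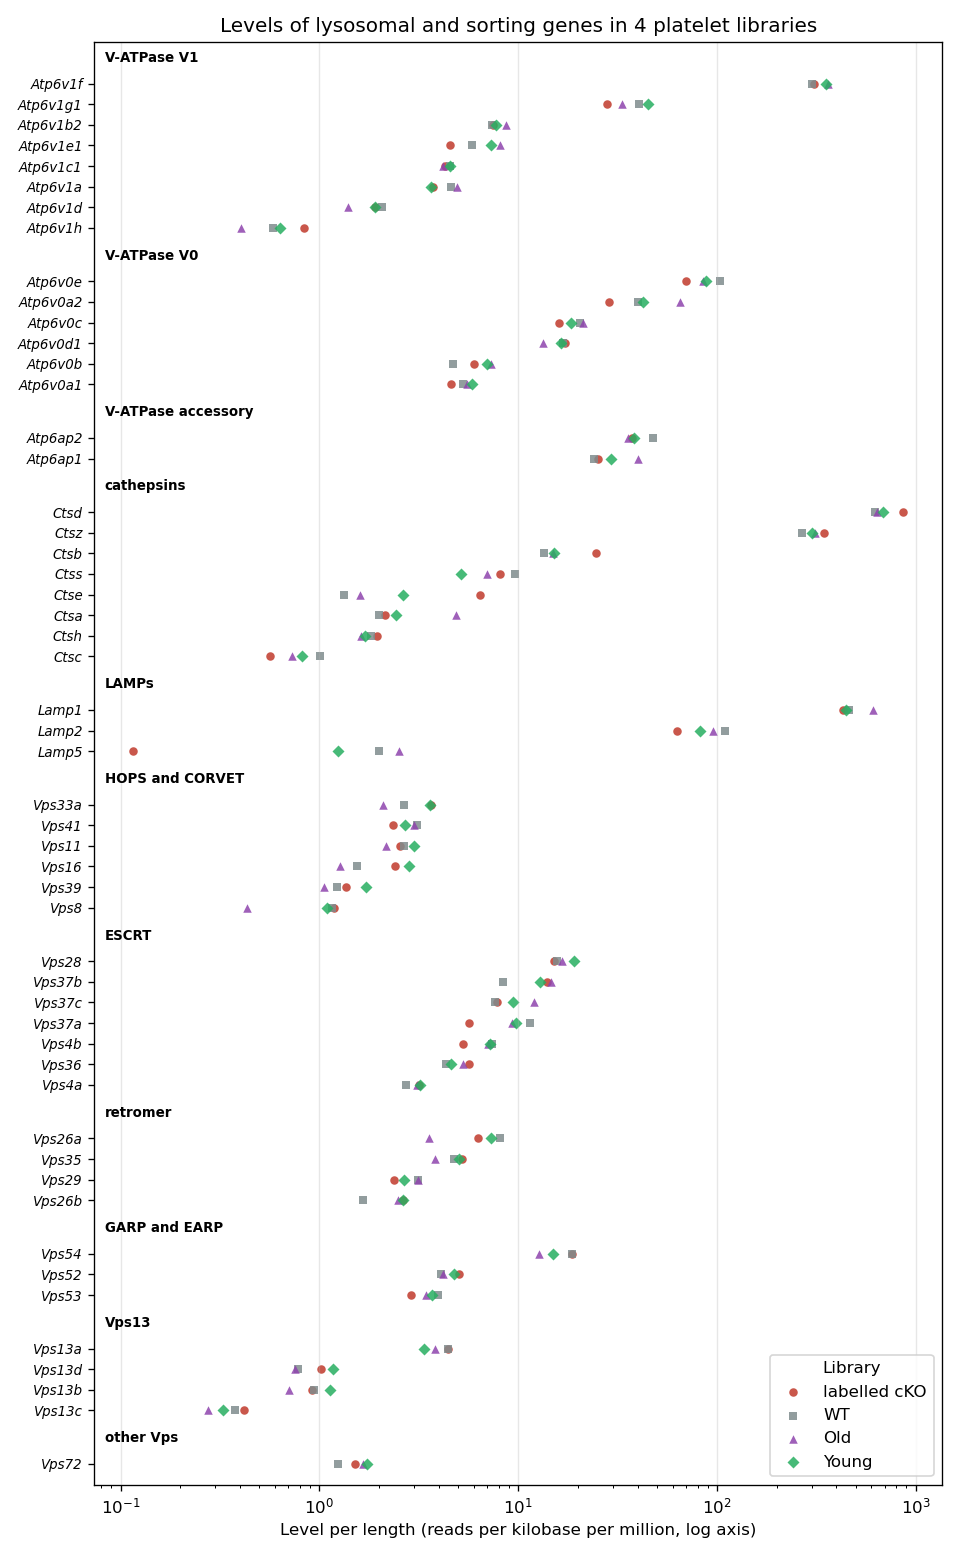
Level of each gene in RPKM (horizontal, log axis) in the libraries labelled cKO, WT, Old and Young, for genes with at least 100 reads in 1 of the libraries, by role. Ctsd, Lamp1, Atp6v1f and Ctsz stand far to the right in all libraries, and Lamp5 of the library labelled cKO stands alone at the left, at 0.12 RPKM.

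The library labelled cKO was set against WT. Ctse, an aspartic protease of endosomes, rose, and Lamp5, a LAMP family member known from neurons and plasmacytoid dendritic cells, fell. Among the more abundant genes, cathepsins D, Z and B were higher, while Lamp2, Vps37a and several V-ATPase subunits were lower, without passing the 2-fold rule. Of the 51 genes of the group with at least 100 reads, 1 rose and 1 fell; over all genes tested 2.52% rose and 1.71% fell, so the group's share is near the background. At a bound of 1.5-fold, Ctse and Ctsb were higher against 7.24% of all genes, and Lamp5, Vps37a and Lamp2 lower against 6.28% of all genes, again near the background. The median log2 ratio was -0.02 for the 62 members with at least 20 reads and -0.01 for all genes. A ratio above 1 was held by 43.55% of these members and by 49.3% of all genes.

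Among the cathepsins, Ctse (chr1:131638306-131675505, mm10) had 362 reads in the library labelled cKO, 76 in WT, 94 in Old and 151 in Young. The library labelled cKO was the highest of the libraries, 4.68-fold above WT (3.65 to 6.07) and 2.63-fold above Young (2.17 to 3.20). WT itself was below Young, at a ratio of 0.55 (0.41 to 0.73). In the authors' deposited table the Ctse log2 fold change was 2.22. Erythroid markers moved the same way, being higher in the library labelled cKO than in WT, but they were higher still in Young; their part in the Ctse value was not tested.

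Ctsb, cathepsin B, a cysteine protease, had 2633 reads in the library labelled cKO, 1463 in WT, 1670 in Old and 1672 in Young. The library labelled cKO stood apart from the rest, at ratios of 1.77 to WT (1.66 to 1.89) and 1.73 to Young (1.62 to 1.84). Ctsd had 36186, 26308, 27914 and 29177 reads in the same order of libraries, with ratios of 1.35 to WT (1.33 to 1.37) and 1.36 to Young (1.34 to 1.38). Ctsz had 8833, 6961, 8320 and 7905 reads, a ratio of 1.25 to WT. For each of these 3 abundant proteases the library labelled cKO was the highest of all. By annotation 34.4% of the Ctsd exon bases overlap another gene on the same strand and 12.8% of those of Ctsb overlap Fdft1 on the opposite strand, so part of these counts depends on how shared reads were assigned. Ctsc, which activates granule serine proteases of leukocytes, went the other way, with 58 reads in the library labelled cKO and 105 in WT (0.54; 0.39 to 0.76). In all, 9 of 12 cathepsins had a ratio above 1 to WT under each of 3 scalings, against 49.3% of all genes with TMM. Their median log2 ratio was 0.23, and 8 of 12 had a ratio above 1 to Young. Of the 9, Ctsa, Ctsh, Ctsf, Ctsl and Ctsw had intervals that held 1. The median is the value of Ctsf and Ctsw, each with 12 reads in the library labelled cKO and 10 in WT. Monocyte and macrophage markers, mostly Lyz2, summed to 41099 reads in the library labelled cKO and 61170 in WT over the 12 measured, with none at 0. Cathepsins took 42.9% of the 66 genes' reads in the library labelled cKO, 30.6% in WT, 30.2% in Old and 34.2% in Young.

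All 3 LAMPs with at least 20 reads had a ratio below 1 to WT. Lamp5 (chr2:136052239-136069917) had 6 reads in the library labelled cKO, 105 in WT, 136 in Old and 66 in Young. The ratio to WT was 0.056 (0.020 to 0.13), and to Young 0.10 (0.035 to 0.23). The ratio to Young rests on 66 reads in the larger library and so lies outside the rule. The authors' deposited table gives Lamp5 a log2 fold change of -4.13. The 6 plasmacytoid dendritic cell markers summed to 756 reads in the library labelled cKO and 688 in WT, and none was at 0 in either; most of these reads were Irf8, which B cells and monocytes also express, at 601 and 550, while Siglech had 48 and 58. Lamp2, whose product is needed for lysosomes to fuse with autophagosomes, had 10661 reads in the library labelled cKO, 18931 in WT, 16862 in Old and 14307 in Young. The library labelled cKO was the lowest, at a ratio of 0.55 to WT (0.54 to 0.57) and 0.82 to Young (0.80 to 0.84); WT lay 1.45-fold above Young. The size of the Lamp2 difference thus depends on which wild-type library is used. Lamp1 differed less, with 20386 reads against 22186 in WT (0.90; 0.89 to 0.92) and a ratio of 1.04 to Young.

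Of 16 V-ATPase genes with at least 20 reads, 3 had a ratio above 1 to WT, where 49.3% of all genes did. Their median log2 ratio was -0.21. Scaling moved that count to 5 with DESeq2 size factors and to 6 with total reads, and against Young 7 of 17 were above 1, or 3 of 17 with total reads. Atp6v0e, a small V0 subunit, had 4053 reads in the library labelled cKO, 6064 in WT, 5127 in Old and 5214 in Young, a ratio of 0.66 to WT (0.63 to 0.68) and 0.85 to Young. Atp6v0a2, an isoform of the large subunit that places the pump, had 3409, 4881, 8105 and 5171 reads in the same libraries, a ratio of 0.69 to WT (0.66 to 0.72) and 0.72 to Young (0.69 to 0.76). For both genes the library labelled cKO was the lowest. Atp6v1g1, a stalk subunit of V1, stood at 561 reads against 833 in WT (0.66; 0.59 to 0.74), and was as low against Young (0.66; 0.59 to 0.74). Atp6ap2, the accessory subunit also known as the prorenin receptor, was at 0.75 of WT (0.71 to 0.80) but at 1.04 of Young (0.97 to 1.11). Atp6v1f and Atp6ap1 had ratios near 1, at 1.00 (0.96 to 1.03) and 1.01 (0.94 to 1.10).

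**Figure D2:**
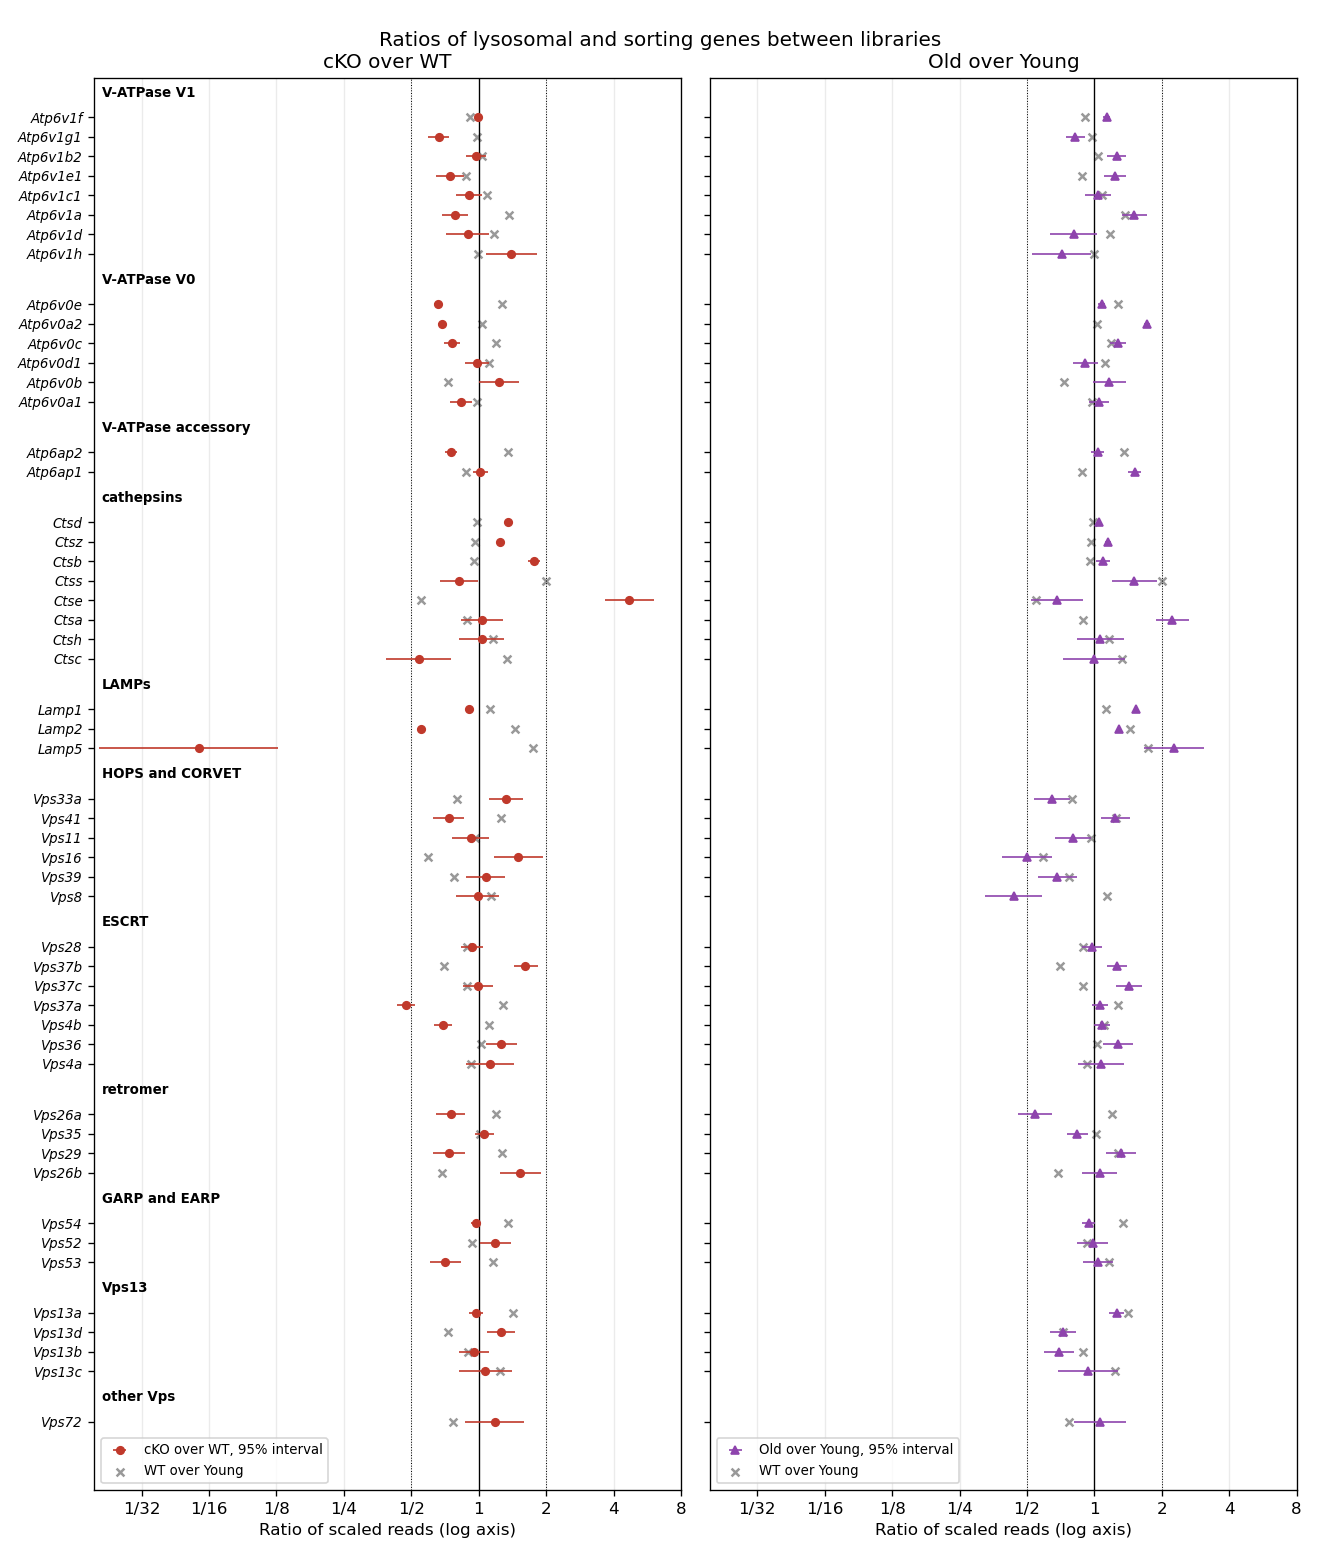
Ratio of scaled reads (horizontal, log axis) with its 95% counting interval for each gene with at least 100 reads, for the library labelled cKO over WT on the left and Old over Young on the right, with WT over Young as grey crosses and 2-fold lines dotted. Ctse and Lamp5 stand outside the 2-fold lines on the left, where Vps37a lies just past the lower line with an interval that reaches inside it, and on the right Vps8 lies below and Ctsa and Lamp5 lie above, with intervals that reach inside the 2-fold lines.

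The sorting genes divided within their complexes. Vps37a and Vps37b are alternative subunits of ESCRT-I, the complex that recognises ubiquitinated cargo at endosomes. Vps37a had 639 reads in the library labelled cKO, 1325 in WT, 1099 in Old and 1134 in Young, a ratio of 0.47 to WT (0.43 to 0.52) and 0.62 to Young (0.56 to 0.68), and was the lowest in the library labelled cKO. Vps37b had 693, 421, 757 and 656 reads, and here WT was the library apart, so that the ratio was 1.62 to WT (1.43 to 1.83) but 1.16 to Young. Of the Vps37b exon bases 42.5% overlap other genes on the opposite strand, among them Hip1r, and the labels do not say whether strand was used in counting. Vps28, the most abundant ESCRT-I gene per length of the group, had 619 reads in the library labelled cKO and 651 in WT (0.93; 0.84 to 1.04). Vps16 and Vps33a, core subunits of both HOPS and CORVET, had ratios of 1.5 (1.17 to 1.94) and 1.32 (1.11 to 1.57) to WT and of 0.91 and 1.08 to Young. Vps41, the HOPS subunit that binds the lysosomal side, had a ratio of 0.73 to WT (0.63 to 0.86) and 0.94 to Young. Retromer genes retrieve sorting receptors from endosomes: Vps35, the scaffold, was at 1.06 of WT, while the alternative subunits Vps26a and Vps26b were at 0.75 (0.65 to 0.87) and 1.53 (1.25 to 1.89). Against Young both intervals held 1, at 0.92 (0.79 to 1.07) for Vps26a and 1.07 (0.90 to 1.29) for Vps26b. Vps54 of GARP had 2496 reads in the library labelled cKO and 2522 in WT (0.97; 0.92 to 1.03) but a ratio of 1.34 to Young (1.26 to 1.42), and Vps52, shared by GARP and EARP, had a ratio of 1.19 (1.01 to 1.39). The lipid transfer genes Vps13a and Vps13d had ratios of 0.97 (0.91 to 1.04) and 1.26 (1.09 to 1.45) to WT, but of 1.41 (1.31 to 1.51) and 0.93 (0.82 to 1.06) to Young. Vps45, a partner of SNARE proteins, had 32 reads in the library labelled cKO against 62 in WT (0.51; 0.32 to 0.79). Vps72, which in spite of its name belongs to a chromatin remodelling complex, had 97 reads in the library labelled cKO against 81 in WT (1.18; 0.87 to 1.60). Of the members not named by the rule, 22 had at least 100 reads, with ratios to WT between 0.69 for Vps4b, an ATPase of the ESCRT pathway, and 1.40 for Atp6v1h, and 15 of them were below 1. The other 13 had under 100 reads in both libraries.

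Old platelets were compared with Young. Lamp1, Lamp2, Lamp5, Ctsa and Atp6v0a2 were higher in Old, and Vps8, Vps16, Vps33a and Vps26a, genes of HOPS, CORVET and retromer, were lower. None passed the 2-fold rule: of 50 genes of the group with at least 100 reads 0 rose and 0 fell, where 4.26% of all genes tested rose and 4.3% fell. At a bound of 1.5-fold, Ctsa, Lamp5, Atp6v0a2 and Lamp1 were higher, against 10.4% of all genes, and Vps8, Vps16 and Vps26a lower, against 12.9% of all genes, so these shares too are at or under the background. The median log2 ratio was 0.08 for 63 members and -0.06 for all genes. A ratio above 1 was held by 58.73% of these members and by 47.29% of all genes. Scaling by total reads moved the whole comparison by -0.16 on the log2 scale, which put the members' median at -0.08, the other side of 0.

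Ctsa (chr2:164832873-164841032), which encodes the carboxypeptidase that also protects lysosomal sialidase and beta-galactosidase, had 425 reads in Old against 209 in Young, and 179 and 170 in the library labelled cKO and WT. Old was the highest of the libraries, 2.23-fold above Young (1.88 to 2.64) and 2.51-fold above WT (2.09 to 3.01). The authors' deposited table gives Ctsa a log2 fold change of 1.15. Of its exon bases 17.4% overlap Neurl2 and Pltp on the opposite strand. The abundant cathepsins differed little: Ctsd had 27914 reads in Old and 29177 in Young (1.05; 1.03 to 1.06), Ctsb had 1670 in Old and 1672 in Young (1.09; 1.02 to 1.17), and Ctsz had 8320 in Old and 7905 in Young (1.15; 1.12 to 1.19). With total reads as the scale Ctsd and Ctsb lay below 1 in Old over Young, at 0.94 and 0.98. Ctse, with 94 reads in Old and 151 in Young, had a ratio of 0.68 (0.52 to 0.89). Its ratio to WT was 1.24. Over the 12 cathepsins the median log2 ratio was 0.11, and -0.05 when total reads were the scale. Ctsl and Ctsf, cysteine proteases named here after their values were seen, were low in all libraries and highest in Old. Ctsl had 39 reads in Old and 7 in Young, a ratio of 6.10 (2.70 to 16.2), and 26.8% of its exon bases overlap other genes. Ctsf had 34 reads in Old and 14 in Young (2.66; 1.39 to 5.36). The monocyte and macrophage markers, mostly Lyz2, summed to 47308 reads in Old and 63737 in Young, but most of the others were higher in Old: Cd14 had 188 reads in Old and 0 in Young, Csf1r had 177 and 36, Ccr2 had 289 and 94, Cd68 had 34 and 7 and Ms4a6c had 34 and 9. Adgre1 and Cx3cr1 were lower in Old, with 16 and 0 reads against 47 and 13 in Young. Their part in the Ctsa, Ctsl and Ctsf values was not tested.

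All 3 LAMPs with enough reads were higher in Old. Lamp1 had 30273 reads in Old against 21575 in Young (1.54; 1.51 to 1.56), and Old was also 1.37-fold above WT. Of the Lamp1 exon bases 9.31% overlap Grtp1 on the opposite strand. Lamp2 had 16862 reads in Old against 14307 in Young (1.29; 1.26 to 1.32), but it was 0.89 of the WT level. Lamp5 had 136 reads in Old against 66 in Young (2.26; 1.67 to 3.08) and 1.3 times the WT level (1.00 to 1.69). Lamp1 is thus the LAMP of the 3 for which Old lay above both wild-type libraries of 3 months by more than counting error. Lamp3, a LAMP of dendritic cells, was named after its values were seen. It had 0 reads in Old and 13 in Young, at least 3.96-fold lower against a floor of 3 reads (interval bound 2.78). Plasmacytoid dendritic cell markers summed to 369 reads in Old and 1106 in Young, with Ccr9 and Klk1 at 0 in Old. Of these reads 314 and 946 were Irf8, and Siglech had 21 in Old and 37 in Young; their part in the Lamp3 value was not tested.

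Among V-ATPase genes, Atp6v0a2 had 8105 reads in Old and 5171 in Young, 1.72-fold higher (1.66 to 1.78) and 1.66-fold above WT, so that Old was the highest library for this subunit and the library labelled cKO the lowest. Of its exon bases 9.86% overlap another gene on the opposite strand. Atp6ap1, an accessory subunit that helps assemble the pump, had 2233 reads in Old and 1619 in Young (1.51; 1.42 to 1.61), with 1348 and 1306 in the library labelled cKO and WT. Old was 1.71-fold above WT for this gene. Atp6v1f was at 1.13 (1.10 to 1.17), Atp6v0e at 1.08 (1.04 to 1.12), Atp6ap2 at 1.04 and Atp6v1g1 at 0.82 (0.74 to 0.91). Of 17 V-ATPase genes 12 had a ratio above 1 (median log2 ratio 0.11), and 8 when total reads were the scale (median -0.05), so no direction is given for the pump as a whole. Atp6v1g2, a brain-type isoform named after its values were seen, had 2 reads in Old and 18 in Young.

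Genes of HOPS and CORVET, which tether late and early endosomes before fusion, were lower in Old than in Young in 6 of 7 cases, with a median log2 ratio of -0.63, and with -0.60 and -0.78 under the other scalings. A ratio above 1 was held by 14.29% of the 7 genes and by 47.29% of all genes. Vps8, the CORVET subunit that binds early endosomes, had 66 reads in Old and 165 in Young, with 173 and 172 in the library labelled cKO and WT. Its ratio was 0.44 to Young (0.32 to 0.59) and 0.38 to WT (0.28 to 0.51), so that Old stood below all other libraries. The log2 fold change of Vps8 in the authors' deposited table was -1.19. Vps16 had 88 reads in Old and 192 in Young (0.50; 0.39 to 0.65), with 159 and 104 in the library labelled cKO and WT. For this gene the interval of the ratio to WT reached 1 (0.85; 0.63 to 1.14), WT itself lying at 0.59 of Young. Vps33a had 186 reads in Old and 315 in Young (0.65; 0.54 to 0.78), 0.81 of WT. Vps41, a HOPS subunit, was the exception, with 372 reads in Old and 328 in Young, a ratio of 1.24 (1.07 to 1.45). Vps39, another HOPS subunit, was lower, with 168 reads in Old and 269 in Young, a ratio of 0.68 (0.56 to 0.83). Its interval to WT held 1 (0.89; 0.72 to 1.10). Vps18, with under 100 reads, had 48 in Old and 82 in Young (0.64; 0.44 to 0.93). Against WT it was higher in Old, at 1.85 (1.13 to 3.11). Against WT the median of the 7 genes was -0.24. WT over Young had a median of -0.32, so the Old library was less far from WT than from Young as a group.

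In retromer, Vps26a had 188 reads in Old and 379 in Young (0.54; 0.45 to 0.65), with 317 and 415 in the library labelled cKO and WT. Old was the lowest library, at 0.45 of WT (0.38 to 0.54). Vps26b, its alternative, had 235 reads in Old and 244 in Young (1.05; 0.88 to 1.27). Vps35 had 626 in Old and 817 in Young (0.84; 0.76 to 0.93). Of 8 ESCRT genes 7 had a ratio above 1 (median log2 ratio 0.22; 4 of 8 with total reads), among them Vps37a at 1.06 and Vps37b at 1.26 (1.14 to 1.41). Vps28, at 0.97, was the exception. Vps54 was at 0.94 (0.88 to 1.01) and Vps52 at 0.98. Vps50, which replaces Vps54 in EARP and is named after its values were seen, had 8 reads in Old and 65 in Young, with 49 and 58 in the library labelled cKO and WT. Old stood below the other libraries, at 0.13 of Young (0.056 to 0.28) and 0.14 of WT. Vps13a, the chorein gene, was 1.26-fold higher in Old (1.17 to 1.35) but 0.89 of WT (0.82 to 0.95), and Vps13d was at 0.72 of Young (0.63 to 0.83) but 1.00 of WT (0.86 to 1.16). The ratios of Vps45 (0.93; 0.62 to 1.38) and Vps72 (1.06; 0.81 to 1.38) had intervals that held 1. Of the members not named by the rule, 21 had at least 100 reads, with ratios between 0.68 for Vps39, a HOPS subunit, and 1.51 for Atp6v1a, and 15 of them were above 1; the other 14 had under 100 reads in both libraries. Beside the neutrophil markers given above, the 9 B cell markers summed to 1291 reads in Old against 4775 in Young, with none at 0, and their part in the Old values was not tested.

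The CLEAR-type palindrome did not go with 1 direction. Of the genes whose windows hold TCACGTGA, Vps16, Vps26a and Vps33a had the ratios 0.50, 0.54 and 0.65 in Old over Young, Ctsa and Atp6v1a had 2.23 and 1.51, and Ctsd, Atp6v0e and Atp6v0d1 had 1.05, 1.08 and 0.91.

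**Figure D3:**
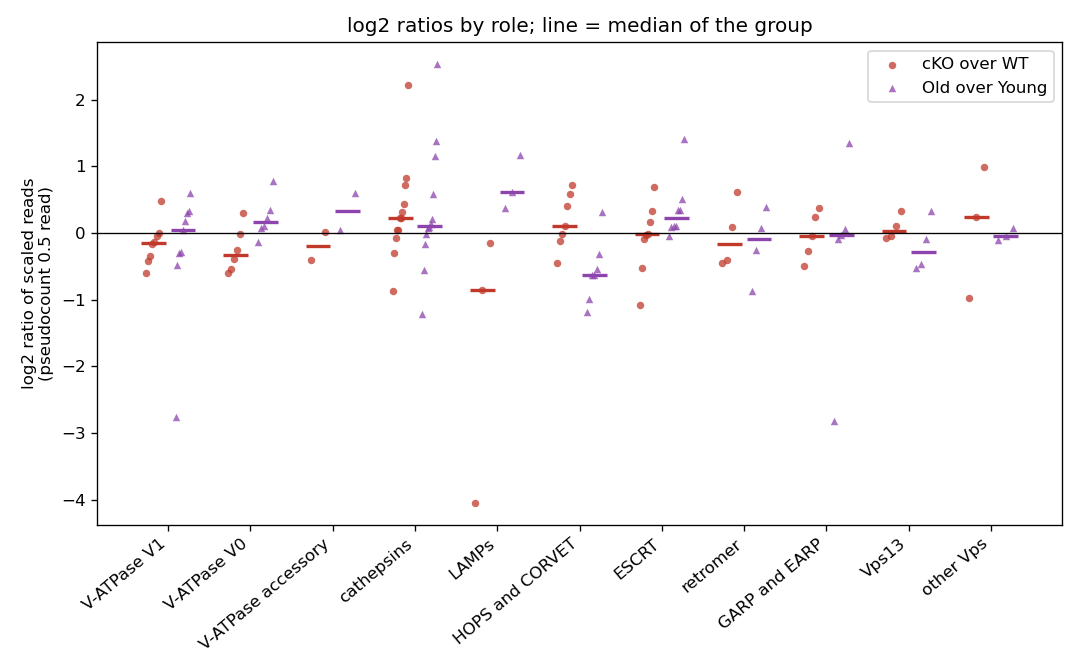
log2 ratio (vertical) of every gene with at least 20 reads, grouped by role, for the library labelled cKO over WT (circles) and Old over Young (triangles), with the group's median as a line. Cathepsins have a median of 0.23 in the library labelled cKO over WT, LAMPs of -0.85 there and 0.62 in Old over Young, and HOPS and CORVET genes of -0.63 in Old over Young.

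Between the wild-type libraries of 3 months, WT and Young, which the study did not set against each other, 0 of 52 genes of the group passed the 2-fold rule, against 0.439% of all genes tested higher and 0.565% lower. At a bound of 1.5-fold 1 gene was higher, Ctss, a cysteine protease of antigen-presenting cells, against 2.59% of all genes, and 0 were lower, against 2.73% of all genes. Ctss had 235 reads in WT and 128 in Young (2.01; 1.61 to 2.51). Under 100 reads, Vps18, a core subunit of HOPS and CORVET, had 26 reads in WT and 82 in Young (0.35; 0.21 to 0.54), and Vps9d1 had 21 in WT and 69 in Young (0.33; 0.19 to 0.55). Monocyte and macrophage markers, mostly Lyz2, summed to 61170 reads in WT and 63737 in Young. Beside Lyz2, Csf1r had 81 reads in WT and 36 in Young, Cd68 had 40 and 7, Cd14 had 18 and 0, Ms4a6c had 32 and 9 and Ccr2 had 126 and 94, while Adgre1 had 25 and 47. Their part in the Ctss value was not tested. These genes were chosen after their values were seen, and the comparison shares WT and Young with the others.

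Alternative subunits of 1 complex can be set against each other within a library, which needs no scaling between libraries. Per length, Vps26a made up 70.3% of Vps26a and Vps26b in the library labelled cKO (Wilson 95% interval 66.7 to 73.7), 82.9% in WT (80.1 to 85.3), 58.8% in Old (54.1 to 63.3) and 73.5% in Young (70.2 to 76.5). The library labelled cKO and Young overlapped, WT was above both and Old below. Atp6v0a2 made up 86.2% of the a1 and a2 isoforms in the library labelled cKO, 88.4% in WT, 92.2% in Old (91.6 to 92.7) and 87.8% in Young (87.0 to 88.7), with Old above the rest. Vps4b, 1 of the 2 ATPases that take ESCRT-III filaments apart, made up 62.5% of the pair in the library labelled cKO (58.3 to 66.6), 73.1% in WT (69.3 to 76.5), 69.4% in Old (65.6 to 73.0) and 69.3% in Young (65.6 to 72.8). The interval of the library labelled cKO did not overlap that of WT but did overlap those of Old and Young. Lamp1 made up 87.2% of Lamp1 and Lamp2 in the library labelled cKO, 80.7% in WT, 86.5% in Old and 84.3% in Young, with WT the lowest.

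**Figure D4:**
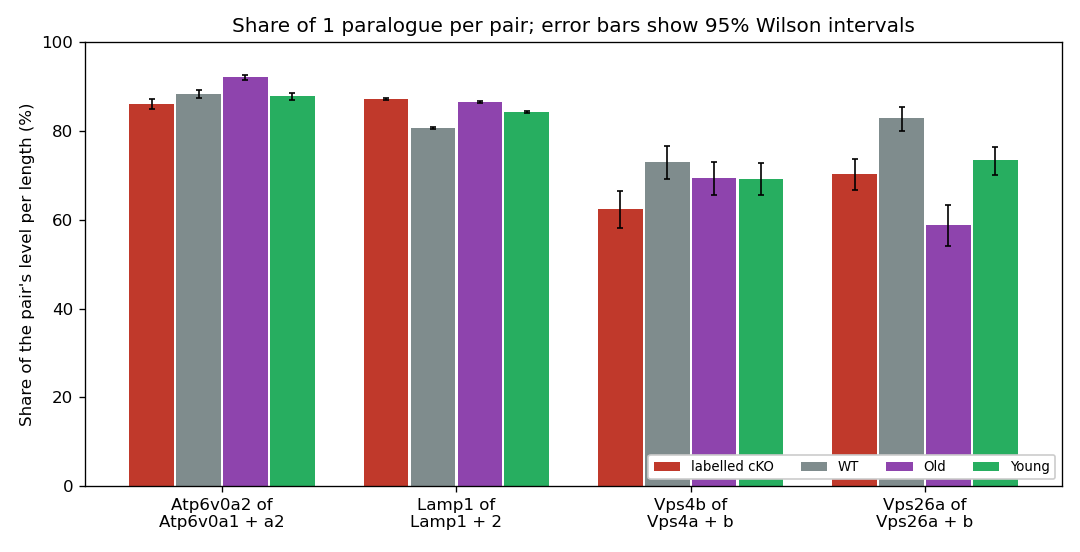
Share of 1 gene in a pair of alternative subunits or relatives, per length (vertical, %), in the libraries labelled cKO, WT, Old and Young, with 95% Wilson intervals as error bars. Vps26a has its lowest share in Old at 58.8% and its highest in WT at 82.9%, while Atp6v0a2 is highest in Old at 92.2%.

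Of 62 genes with at least 20 reads in each comparison, 22 had a ratio below 1 in the library labelled cKO over WT and above 1 in Old over Young, 12 the reverse, 15 were above 1 in both and 13 below 1 in both. This division depends on the scale: with total reads 10 were below 1 in the library labelled cKO and above 1 in Old, 21 the reverse, 14 above 1 in both and 17 below 1 in both. These pairs share no library. The same division was not made over all genes, so the counts cannot be set against a background and are not read as a trait of the group. Among the genes with opposite ratios, those farther from 1 included Lamp2 (0.55 and 1.29), Lamp5 (0.056 and 2.26), Atp6v0a2 (0.69 and 1.72) and, the other way round, Vps16 (1.5 and 0.50), Vps33a (1.32 and 0.65) and Ctse (4.68 and 0.68). Some were not opposite with the same wild-type library as reference. Against WT, Lamp2 was at 0.55 in the library labelled cKO and 0.89 in Old, and Ctse at 4.68 and 1.24. Against Young, Vps16 was at 0.91 and 0.50. Lamp5, Atp6v0a2 and Vps33a stayed opposite against either library. Intervals held 1 for Vps33a in the library labelled cKO over Young (0.92 to 1.26) and for Lamp5 in Old over WT (1.00 to 1.69). Ctsz was above 1 in both, as were Ctsd and Ctsb with TMM, and Vps26a (0.75 and 0.54) and Atp6v1g1 (0.66 and 0.82) below 1 in both.

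Other lysosomal genes were described from lists of related function, whose counts stand against the shares of all genes that rose and fell, 2.52% and 1.71% in the library labelled cKO over WT and 4.26% and 4.3% in Old over Young. Of 16 other hydrolases with at least 100 reads, 0 rose and 0 fell in the library labelled cKO over WT (median log2 ratio 0.24), and of 18 in Old over Young 0 and 0 (median 0.43). Hexa, the hexosaminidase subunit and the most abundant of them, had 9421 reads in the library labelled cKO against 5952 in WT (1.56; 1.5 to 1.61), and 6892 in Old against 6271 in Young (1.2; 1.16 to 1.25). Tpp1, an exopeptidase, had 1308 reads in the library labelled cKO against 1734 in WT (0.74; 0.69 to 0.80), and 2344 in Old against 1592 in Young (1.61; 1.51 to 1.72). Members of the list lay on either side of WT: Fuca1, a fucosidase, had 676 reads in the library labelled cKO against 303 in WT (2.19; 1.91 to 2.52), and Ppt1, a thioesterase that removes palmitate, had 450 against 972 (0.45; 0.41 to 0.51). Of 10 lysosomal membrane and activator genes, 0 rose or fell in either comparison (medians -0.07 and 0.66). Laptm4a, a lysosomal transmembrane protein, reached 15349 reads in Old against 8410 in Young (2.00; 1.95 to 2.05), and Laptm5, its haematopoietic relative, 45120 in Old against 45963 in Young (1.07; 1.06 to 1.09). Of 10 genes of mannose 6-phosphate and sortilin sorting, which deliver hydrolases to lysosomes, 0 rose or fell in the library labelled cKO over WT (median 0.11), and Sort1 alone rose in Old. Sort1, the receptor sortilin, had 11667 reads in Old against 5801 in Young (2.20; 2.13 to 2.27), and 4280 and 5760 in the library labelled cKO and WT (0.73; 0.70 to 0.76). The median of the sorting list in Old over Young was -0.02.

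Among other ESCRT subunits 0 of 16 rose or fell in the library labelled cKO over WT (median -0.08), with Ubap1 at 1.07 and Chmp5 at 1.01. At a bound of 1.5-fold Stam, a subunit of ESCRT-0, was lower with 56 reads against 136 in WT (0.40; 0.29 to 0.56), as was Chmp2a of ESCRT-III with 155 against 319 (0.48; 0.39 to 0.58). In Old over Young 1 of 17 rose (median 0.19): Mvb12b, a subunit of ESCRT-I, had 7192 reads in Old against 3673 in Young (2.14; 2.06 to 2.23). Of 15 retromer partner and Vps34 kinase genes 0 rose or fell in the library labelled cKO over WT (median -0.04), where Becn1, the Beclin subunit of the kinase complex, had 16830 reads in the library labelled cKO against 9831 in WT (1.68; 1.64 to 1.72). Snx3, a sorting nexin, had 1886 in the library labelled cKO against 3216 in WT (0.58; 0.54 to 0.61). In Old over Young 1 of 15 fell (median -0.19): Rubcn, an inhibitor of Vps34 known as Rubicon, had 215 reads in Old against 656 in Young (0.36; 0.31 to 0.42). Of the MiT/TFE and mTORC1 genes, 0 of 11 rose or fell in the library labelled cKO over WT and 0 of 13 in Old over Young (medians -0.14 and 0.15). Lamtor5 and Rraga, both of the machinery that holds mTORC1 at the lysosome, had ratios of 0.62 and 0.94 to WT and of 1.11 and 1.07 in Old over Young. Of 3 cathepsin inhibitor genes with enough reads 0 rose or fell in either comparison (medians over those with at least 20 reads -0.46 and 0.22). Cst3, cystatin C, had 7457 reads in the library labelled cKO against 10090 in WT (0.73; 0.70 to 0.75), and 6208 in Old against 9381 in Young (0.72; 0.70 to 0.75). Ctla2a, whose product resembles a cathepsin propeptide, had ratios of 0.83 and 0.87.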

How the data were processed

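Per the labels' protocols, total RNA was extracted with TRIzol and made into Illumina libraries. The submitters' processing notes name the build mm10 and the tools HISAT2 2.0.5, CASAVA, DESeq2 1.20.0 and featureCounts 1.5.0-p3, with no role or order; strand and multi-mapping settings are not given there. The authors deposited, per table, a signal for every gene in both libraries together with a log2 fold change; a raw and an adjusted p-value stand beside it, per the file headers, with no test named, and compare 2 libraries, not the conditions. The signal is reads scaled to a common library size: dividing by 1 step per library gave whole reads for 100% of values within 0.02 read. The planned design assumed counts, so the recovered reads were used. No count test was run, since 1 library per group leaves no replicates. Ratios used TMM library sizes (edgeR 4.0.16, R 4.3.3) and Clopper-Pearson intervals; medians of log2 ratios used a pseudocount of 0.5 read and genes with at least 20 reads over both libraries. Ratios across the tables used recovered reads, because the authors scaled each table separately. A floor of 3 reads stands for 0. Each table leaves out genes whose reads in its pair of libraries sum to fewer than 2. A further 4 per-sample columns match no sample by name and were not used. Amplified reads are not independent molecules, so intervals cover counting error only.

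The members and gene lists were chosen with earlier results of these data known. The named genes (31 of the 66) were those past the 2-fold rule, the 5 highest and 5 lowest ratios per comparison among genes with at least 100 reads, and the 2 most abundant per length of each role; other lists gave their members past the rule and their 2 most abundant. Atp6v0d1, Atp6v1a, Atp6v1h, Atp6v1g2, Ctsf, Ctsh, Ctsl, Ctss, Ctsw, Lamp3, Vps4b, Vps9d1, Vps18, Vps39 and Vps50 were named after their values were seen. So were Fuca1, Ppt1, Stam and Chmp2a of the other lists, which passed only a bound of 1.5-fold. Other genes past that bound, among them Lgmn, Acp2, Gm2a, Gga2, Snx2, Tgfbrap1, Uvrag, Cd63 and Tpcn1, were not described. The interval and size rule were tested on simulated data. Lower and higher minimum reads, other bounds, other scalings (total reads; DESeq2 1.42.0 size factors) and the other wild-type library were tried.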

Additional observations from a re-analysis of the deposited data

How the results depend on the processing

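The number of genes of the group past the rule depends on where the bound lies. In the library labelled cKO over WT, 2 were higher and 3 lower at a bound of 1.5-fold, and 0 were higher at 4-fold; with Young in place of WT 0 were lower, since Lamp5 then has too few reads. The members' median there was -0.02 with TMM, 0.0013 with DESeq2 size factors and 0.0236 with total reads, so no direction is given. In Old over Young, where 0 passed in either direction, a minimum of 20 reads gave 1 higher (Ctsl) and 1 lower (Vps50), no minimum gave 1 higher and 2 lower (Lamp3 added), a bound of 1.5-fold gave 4 higher and 3 lower, and WT in place of Young gave 1 higher (Ctsa). The members' median in Old over Young was 0.08, and -0.0798 with total reads. In WT over Young 0 members lay outside 2-fold under all 3 scalings. For the 31 named genes, 248 values were recomputed, of which 187 moved by less than the counting interval, 61 by more, and none of the genes that rose or fell reversed. Some crossed 1: with total reads 4 of 31 in the library labelled cKO over WT and 7 in Old over Young, with DESeq2 size factors 2 and 2, with Young in place of WT 10, and with WT in place of Young 9, among them Lamp2 (0.89), Vps13a (0.89), Atp6v0e (0.85) and Ctse (1.24). Medians by role and the 4-way division of ratios under other scalings, and medians against the other wild-type library were added after seeing the data. No paired analysis was possible because each group has 1 library, and leaving out a replicate leaves none. Depth limits genes under 100 reads, among them Ctsl, Ctsf, Vps50 and Lamp3, whose intervals span several-fold.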
